A study of Mus musculus with 6 samples.

Results

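The 10 genes described here were listed together for neuronal migration and the phosphorylation of tau. They are Pafah1b1, Pafah1b2, Pafah1b3, Ndel1, Nde1, Cdk5, Cdk5r1, Cdk5r2, Gsk3b and Mapt. All probe sets whose platform annotation named 1 of these genes were taken, without regard to their values, which gave 32 of the 45101 probe sets on the array. Of these, 27 averaged 89.0 or more in signal over the 6 arrays, which is the median of these averages on the array, and passed this filter, at least 1 for every gene. The remaining 5 did not pass and were not tested. Members were 10 of the 18193 genes with a probe set of their own.

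Each of the 6 arrays measured RNA from 1 frontal cortical lobe of 1 mouse aged 21 days, on a mixed background of C57BL/6 and 129, with 1 array per genotype. A cross of mice heterozygous for both receptors gave a wild type (WT), a knockout (KO) of Vldlr, a knockout of apoER2 (gene symbol Lrp8) and a double knockout of both. A Dab1 KO and a Reln KO came from matings of Dab1 and Reeler heterozygotes, without littermate arrays. Following the series title, the Dab1 KO, Reln KO and double KO are called reeler models, and the other 3 arrays, WT, Vldlr KO and Apoer2 KO, serve as comparison arrays. No Cre, transgene or treatment is named for any group, and no array has a replicate. A p-value below therefore sets the class difference against the spread within the classes, where the 3 animals of a class differ in genotype.

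Reelin, the secreted product of Reln, binds the receptors Vldlr and Apoer2 and leads to phosphorylation of the adaptor Dab1 in migrating neurons. Lis1, the product of Pafah1b1, binds the dynein motor together with Ndel1 and Nde1 and pulls the nucleus forward, and its loss causes lissencephaly in humans. Cdk5 is a kinase of postmitotic neurons that is active only when bound to p35 (Cdk5r1) or p39 (Cdk5r2), and mice that lack it or p35 have misplaced cortical neurons. Gsk3b and Cdk5 both phosphorylate tau, the microtubule-associated protein encoded by Mapt, and reelin signalling is known to restrain Gsk3b through phosphorylation. Arrays measure RNA, so none of these phosphorylation steps was measured.

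Median signals were 86.5 to 92.3 over the arrays, and the highest reading of a bacterial control that was not hybridised as a spike was 20.1 to 38.9, depending on the array. Only these unspiked controls are meant below. The targeted genes read low where they should at Reln (79.9 on the Reln KO array, at least 1498 elsewhere) and Lrp8 (4.2 and 13.7 on the Apoer2 KO and double KO arrays, at least 342.4 elsewhere). Vldlr read 187.3 and 185.6 on the arrays that lack it against at least 357.6 elsewhere, and Dab1 read 478.5 on the Dab1 KO array against 516.4 to 626.0 elsewhere. Excitatory cortical neuron genes were present, with all 9 of those measured past the signal filter and a summed signal of 8449 to 9772. All animals are labelled male, but Xist, expressed in females, read 3368 to 4006 on 5 arrays and 125 on the Apoer2 KO array, and the Y-linked Eif2s3y read 368 on that array against at most 7.7. The Apoer2 KO array also stood apart in growth hormone, Gh (3705 against at most 32.4). Summed signal of 8 cerebellar granule cell genes was 2248 to 3343 in reeler models and 9382 to 12321 in comparison arrays, and all 8 passed the test below, although this list was put together from earlier results of these arrays. The tissue is labelled frontal cortex, yet 5 genes of Purkinje cells, also cerebellar, had a summed signal on every array. It was 7232 to 9593 in reeler models and 8942 to 9606 in comparison arrays. Fewer granule cells, less RNA per cell and the tissue taken cannot be told apart here as sources of the granule cell difference.

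The first question was whether RNA of these genes differed between the reeler models and the comparison arrays. No member passed an adjusted p of 0.05: 0 of 27 probe sets did in limma, against 0.12% of all 22519 probe sets tested (27 in all, 0.111% lower and 0.00888% higher). At an unadjusted p of 0.05, 2 of 27 passed (7.41%), Gsk3b 1454958_at and Pafah1b1 1417086_at, against 11% of all probe sets. Both were higher in reeler models, as were 4.5% of all, and 0 members were lower, against 6.53%. The classes did not overlap for 4 of 27 probe sets (14.8%), against 17.7% of all, with 3 higher (8.07% of all) and 1 lower (9.68% of all). The shares in either direction lie below those of the whole array. The median difference over the 27 probe sets was 0.01 on the log2 scale, with 14 above and 13 below 0, and -0.004 over all probe sets. The median size of the difference, sign left out, was 0.084 for the members and 0.125 over all. Without the Apoer2 KO, Dab1 KO or Reln KO array the probe sets without overlap numbered 8, 7 and 8, each with fewer arrays to overlap. The share over all probe sets was not taken there, so these counts are not read as a result about the members. The number of called probe sets on the whole array dropped to 2 without the WT or without the Apoer2 KO array.

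**Figure D1:**
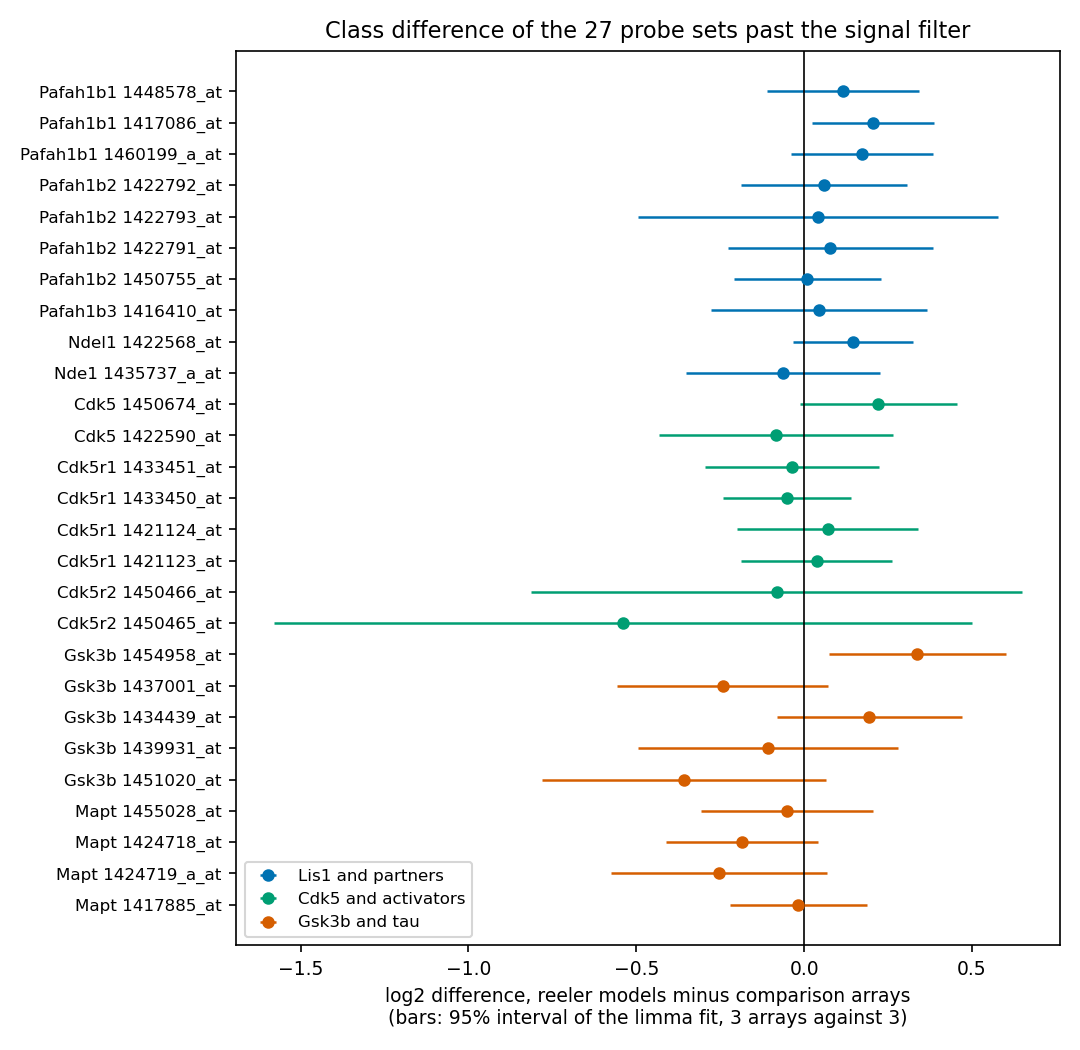
Each point is the log2 difference of 1 probe set between the 3 reeler models and the 3 comparison arrays, on the x axis, and each bar its 95% interval from the limma fit; colours mark the 3 role groups. Intervals of Gsk3b 1454958_at (0.07 to 0.60) and Pafah1b1 1417086_at (0.02 to 0.39) lie above 0 before adjustment, none lies wholly below 0, and the probe sets of Cdk5r2 have the widest.

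Among the Lis1 genes, 9 of 10 probe sets past the filter lay above 0 in the reeler models, by small amounts. Of all probe sets, 11095 of 22519 did. The 9 are not independent, since 4 belong to Pafah1b2 and share 1 source sequence in the platform annotation. Pafah1b1 had 3 of the 9, at 0.12, 0.21 and 0.17 on the log2 scale. At 1417086_at the reeler models read 1558.3 (Dab1 KO), 1591.7 (Reln KO) and 1524.6 (double KO), and the comparison arrays 1423.3 (WT), 1362.3 (Vldlr KO) and 1260.7 (Apoer2 KO). The classes did not overlap there, with a difference of 0.21 (SE 0.08, 1.15-fold, adjusted p = 0.418 in limma). They did not overlap either at 1460199_a_at, where reeler models read 733.8 to 766.5 and comparison arrays 609.8 to 711.9 (difference 0.17, SE 0.09, adjusted p = 0.522). At the brightest Pafah1b1 probe set, 1448578_at, the WT array alone was low, at 1976.8. The other arrays read 2530.7 (Vldlr KO), 2365.6 (Apoer2 KO), 2351.7 (Dab1 KO), 2543.8 (Reln KO) and 2525.4 (double KO), so that both single receptor knockouts lay within or beside the reeler models. Its difference was 0.12 (SE 0.10, adjusted p = 0.679). The 2 further Pafah1b1 probe sets were below the filter, with signals of 3.9 to 32.6.

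Ndel1, which encodes a dynein regulator that Cdk5 phosphorylates, read 1733.9 (WT), 1735.4 (Vldlr KO), 1888.8 (Apoer2 KO), 1977.1 (Dab1 KO), 1880.1 (Reln KO) and 2077.1 (double KO) at 1422568_at. The Apoer2 KO and Reln KO arrays overlapped, and the difference of 0.15 (SE 0.08, adjusted p = 0.523) did not pass. Its paralogue Nde1, which acts in dividing progenitors, read 187.1 (WT), 155.5 (Vldlr KO), 167.8 (Apoer2 KO), 171.5 (Dab1 KO), 168.7 (Reln KO) and 144.5 (double KO). The WT array was highest and the double KO array lowest, while the Dab1 KO and Reln KO arrays lay among the comparison arrays (difference -0.06, SE 0.13, adjusted p = 0.878). A dim second Ndel1 probe set read 9.5 to 38.5 and was below the filter.

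Pafah1b2 and Pafah1b3 encode the catalytic subunits with which Lis1 forms the brain platelet-activating factor acetylhydrolase. Pafah1b2 did not separate the classes at any of its 4 probe sets, with differences of 0.01 to 0.08, but followed another line. At all 4, both arrays that lack Vldlr lay below the other 4 arrays. At the brightest, 1422792_at, the Vldlr KO read 1537.6 and the double KO 1602.2, and the others read 1826.4 (WT), 1737.8 (Apoer2 KO), 1698.9 (Dab1 KO) and 2031.0 (Reln KO). The gap was widest at 1422793_at, with 749.1 (Vldlr KO) and 891.1 (double KO) against 1434.1 (WT), 1244.3 (Apoer2 KO), 1211.8 (Dab1 KO) and 1357.1 (Reln KO). That is 1.88-fold and 1.59-fold below WT. Both arrays lay below the other 4 for 5.55% of all probe sets and for 5 of the 27 members (18.5%), Nde1 being the fifth. The 4 Pafah1b2 probe sets share 1 source sequence in the platform annotation and are 1 observation of 1 transcript rather than 4, and the pattern was picked after its values were seen, so no test was made. Choroid plexus genes had a median difference from WT of -0.60 on the Vldlr KO array and -0.23 on the double KO array, against -0.13 (Apoer2 KO), -0.43 (Dab1 KO) and -0.16 (Reln KO), and their part in the Pafah1b2 values was not tested. Pafah1b3 read 194.0 (WT), 196.3 (Vldlr KO), 167.4 (Apoer2 KO), 190.1 (Dab1 KO), 228.6 (Reln KO) and 162.9 (double KO). The arrays that lack Apoer2 were its lowest, a placement that 4.53% of all probe sets shared, and its class difference was 0.05 (SE 0.14, adjusted p = 0.926).

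**Figure D2:**
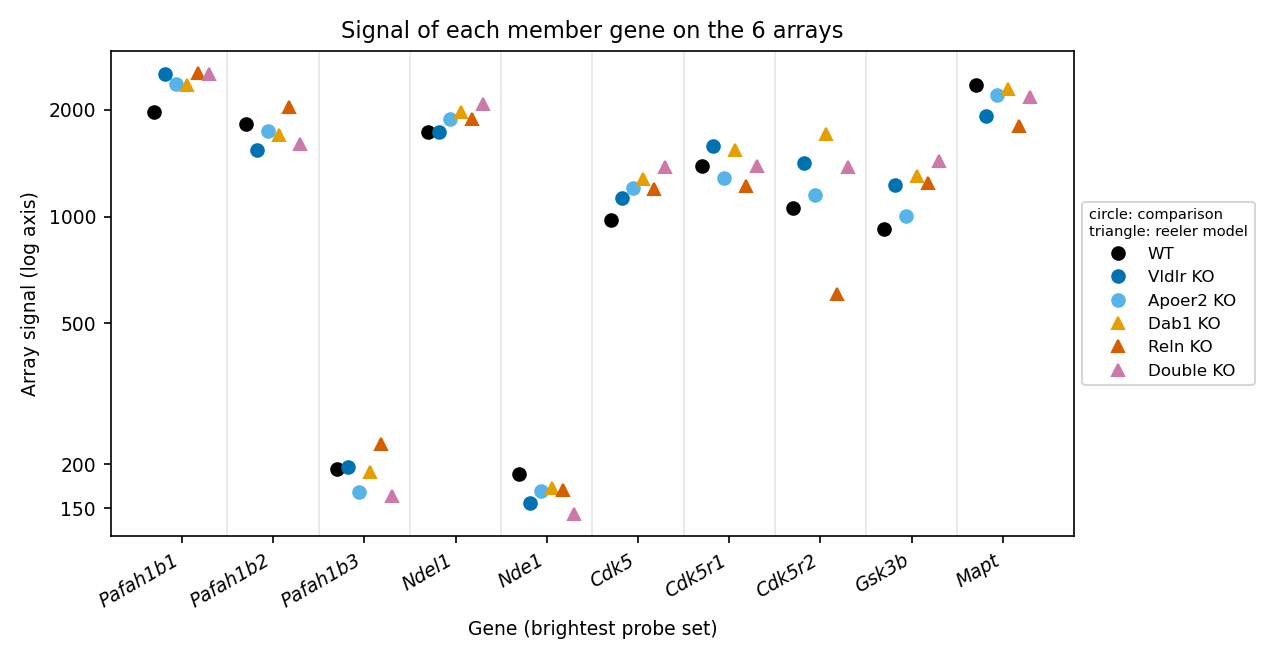
Array signal of the brightest probe set of each gene, on a log axis, with 1 symbol per array; circles are the comparison arrays and triangles the reeler models. Signals of different genes come from different probes and are not compared with each other. Circles and triangles overlap for every gene except Gsk3b, and the Reln KO array stands low at Cdk5r2 (605.8).

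Cdk5 itself read higher on every mutant array than on WT at its brightest probe set, 1450674_at. Signals were 974.9 (WT), 1125.7 (Vldlr KO), 1202.7 (Apoer2 KO), 1278.4 (Dab1 KO), 1197.6 (Reln KO) and 1379.7 (double KO). The Apoer2 KO array lay just above the Reln KO array, so the classes overlapped, and the difference of 0.22 (SE 0.10, 1.17-fold, adjusted p = 0.474) did not pass. The other Cdk5 probe set past the filter, 1422590_at, is annotated to the same source sequence and ran the other way (-0.08, SE 0.15). There the Reln KO array read 273.2, while the other 5 lay between 378.3 and 424.5. The last probe set, 1460022_at, read 5.0 to 8.2, under the highest bacterial control of every array.

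The activator p35 varied little. Cdk5r1 read 1387.2 (WT), 1580.3 (Vldlr KO), 1282.8 (Apoer2 KO), 1541.3 (Dab1 KO), 1217.0 (Reln KO) and 1390.8 (double KO) at 1433451_at, with overlapping classes. Its 4 probe sets had class differences of -0.05 to 0.07, each with an interval that excludes a difference of more than 0.34 in either direction before adjustment. The probe sets 1433450_at and 1421123_at were among the steadiest on the array, with an SD over the 6 arrays larger than only 5.7% and 4.7% of probe sets.

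The other activator, p39, differed most among arrays of all 10 genes. Cdk5r2 read 1056.3 (WT), 1412.3 (Vldlr KO), 1151.2 (Apoer2 KO), 1708.6 (Dab1 KO), 605.8 (Reln KO) and 1382.7 (double KO) at 1450466_at. The Reln KO array was lowest, 1.71-fold below WT, and the Dab1 KO array highest, 1.60-fold above it, so that reeler models stood at both ends. The second probe set, 1450465_at, is annotated to the same source sequence, so it is not independent of the first. It read 11.7 on the Reln KO array, against 83.0 to 131.7 on the other 5 arrays. That reading lies below the highest bacterial control of the same array (26.0) and is a bound rather than a level. The Dab1 KO array was not high at this probe set (120.1 against 115.6 in WT). The class differences were -0.08 (SE 0.32) and -0.54 (SE 0.46), with adjusted p = 0.941 and 0.676, and without the Reln KO array they were 0.35 and 0.08. The SD over arrays was larger than that of 97.3% and 99.2% of probe sets.

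Marker lists were set beside this low value. On the Reln KO array the median difference from WT was -0.07 for 8 general neuron genes and 0.09 for 9 cortical excitatory neuron genes. Within the neuron list the neurofilament genes Nefl (-0.52) and Nefm (-0.47) were lowest on this array, followed by Tubb3 (-0.32) and Stmn2 (-0.16). Syt1 (0.02), Rbfox3 (0.03), Snap25 (0.05) and Eno2 (0.19) lay above WT. Medians were 0.42 for hypothalamic genes, 0.41 for striatal genes, -0.24 for oligodendrocyte genes and -0.31 for microglial genes. The microglial genes went both ways, with P2ry12 at -1.13, Csf1r at -0.49, Cx3cr1 at -0.32 and Tmem119 at -0.30. C1qa stood at 0.52 and Aif1 at 0.21, and of these genes Cx3cr1 and Aif1 were below the signal filter. The striatal genes went both ways, with the opioid precursor gene Penk at 0.74, Ppp1r1b at 0.69 and Rgs9 at 0.415. The dopamine receptor genes Drd1 and Drd2 stood at -0.09 and -0.24. Granule cell genes stood at -1.95 on this array, at -1.79 on the Dab1 KO array and at -2.20 on the double KO array. The part of any of these in the Cdk5r2 value was not tested.

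The promoter of Cdk5r2 is shown because this is the member with the widest range across arrays. The 250 bases before the RefSeq start lie at chr1:74854779-74855028 on the + strand of GRCm38.p6. Capitals mark matches, on either strand, to the GC box GGGCGG (1 match) and the CCAAT box CCAAT (2 matches).
Cdk5r2: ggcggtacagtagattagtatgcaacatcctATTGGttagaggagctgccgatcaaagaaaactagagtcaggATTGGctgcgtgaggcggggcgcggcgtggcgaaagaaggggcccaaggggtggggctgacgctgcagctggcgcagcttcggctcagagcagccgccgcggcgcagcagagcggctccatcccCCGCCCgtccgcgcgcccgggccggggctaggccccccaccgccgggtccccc
The E-box CACGTG and the cAMP response element TGACGTCA were searched too and had no match in this window. Over 32851 windows of the same length in the RefSeq promoter table, 32.7% held a GC box, 33.8% a CCAAT box, 6.02% the E-box and 1.55% the cAMP response element. The motifs do not overlap here, and a match describes letters only. The table held 6 of the 10 genes, and Pafah1b3, Cdk5, Cdk5r1 and Mapt were missing from it.

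Gsk3b was the 1 gene whose brightest probe set separated the classes, and its probe sets differed in direction. At 1454958_at the signal was 922.3 (WT), 1224.3 (Vldlr KO), 1000.5 (Apoer2 KO), 1303.4 (Dab1 KO), 1244.2 (Reln KO) and 1430.2 (double KO). The difference was 0.34 (SE 0.12, 1.26-fold, adjusted p = 0.380 in limma), with the Vldlr KO array only just below the Reln KO array. The probe set 1434439_at, which is annotated to the same source sequence, also read higher in reeler models (0.19, SE 0.12, adjusted p = 0.574), at 282.9 (Dab1 KO), 217.1 (Reln KO) and 258.7 (double KO). Comparison arrays read 212.9 to 221.3 there, with the Reln KO array inside that range.

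The other 3 Gsk3b probe sets past the filter read lower in reeler models. At 1451020_at the signals were 177.6 (WT), 153.3 (Vldlr KO), 115.3 (Apoer2 KO), 138.0 (Dab1 KO), 93.4 (Reln KO) and 98.0 (double KO), a difference of -0.36 (SE 0.19, adjusted p = 0.515). At 1437001_at they were 314.0 (WT), 328.2 (Vldlr KO), 251.4 (Apoer2 KO), 279.5 (Dab1 KO), 245.4 (Reln KO) and 216.2 (double KO), a difference of -0.24 (SE 0.14, adjusted p = 0.544). In both, the Apoer2 KO array read below the Dab1 KO array, so the classes overlapped. At 1439931_at they were 175.8 (WT), 276.3 (Vldlr KO), 198.0 (Apoer2 KO), 168.9 (Dab1 KO), 220.4 (Reln KO) and 201.1 (double KO), with a difference of -0.11 (SE 0.17, adjusted p = 0.840) that came to 0.06 without the Vldlr KO array. The sixth probe set, 1439949_at, was below the filter, and read 47.8 to 75.1 in reeler models and 89.8 to 93.6 in comparison arrays.

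Within each array the Gsk3b probe sets that read higher and those that read lower can be set against each other. This lessens the effect of the scaling of the array but does not remove it, since a constant was added before log2. Pairs were formed, after the values were seen, from class differences of opposite sign. Each ratio therefore averages higher in reeler models by construction. The pair with the widest gap was 1454958_at and 1451020_at. The log2 ratio of the first to the second averaged 3.31 ± 0.27 over the 3 reeler models and 2.61 ± 0.35 over the comparison arrays (± SD, n = 3 each). Array by array it was 2.21 (WT), 2.79 (Vldlr KO), 2.84 (Apoer2 KO), 3.00 (Dab1 KO), 3.39 (Reln KO) and 3.53 (double KO). The classes did not overlap for 5 of the 6 pairs of Gsk3b probe sets with differences of opposite sign (83.3%), against 25.9% of the 4721 such pairs over all genes. The 6 pairs share probe sets and are not independent. The span from the lowest to the highest class difference, the same quantity as the gap of the pair above, was 0.69 for Gsk3b. That was wider than the span of 91.1% of the 269 genes with 5 or more probe sets past the filter, whose median was 0.32. A mixture of signs as such is common, since 44.4% of genes with several probe sets past the filter had both signs, as did 3 of 7 members (Cdk5, Cdk5r1 and Gsk3b). Granule cell genes differed between the same classes, and their part in the Gsk3b values was not tested.

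**Figure D3:**
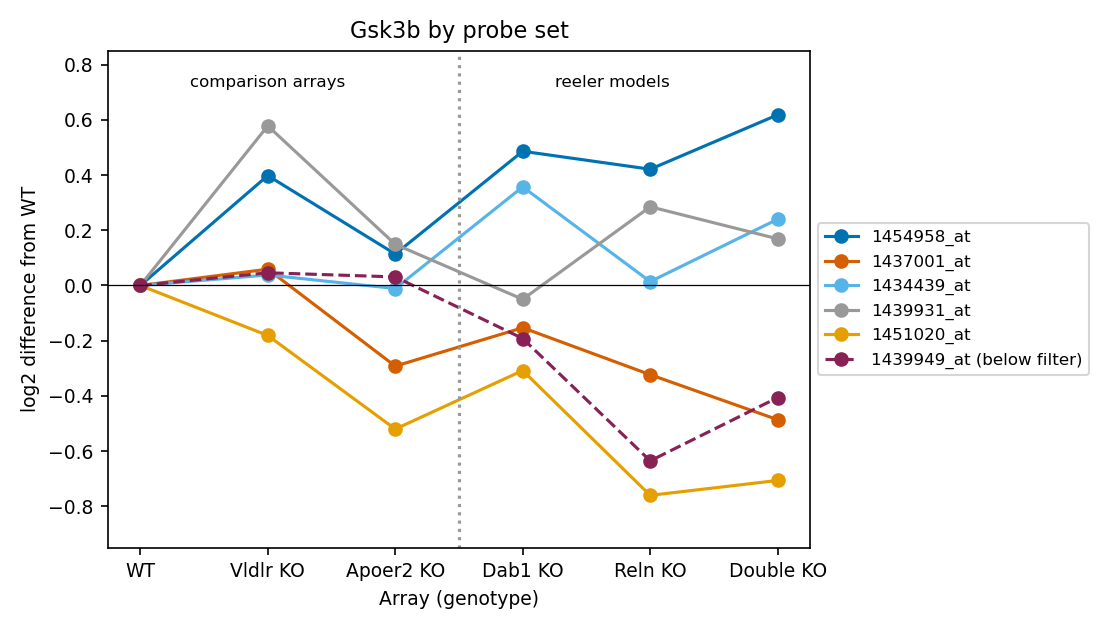
Log2 difference from the WT array on the y axis for each Gsk3b probe set, by array; lines only join the values of 1 probe set and the dashed one is below the signal filter. On the double KO array 1454958_at stands at 0.62 and 1451020_at at -0.71.

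The promoter window of Gsk3b is shown because its class differences span the widest range among the 3 members with both signs. The RefSeq table lists 1 start for this gene. The window lies at chr16:38088751-38089000 on the + strand of GRCm38.p6 and held 3 CCAAT boxes, in capitals on either strand, and none of the other 3 motifs.
Gsk3b: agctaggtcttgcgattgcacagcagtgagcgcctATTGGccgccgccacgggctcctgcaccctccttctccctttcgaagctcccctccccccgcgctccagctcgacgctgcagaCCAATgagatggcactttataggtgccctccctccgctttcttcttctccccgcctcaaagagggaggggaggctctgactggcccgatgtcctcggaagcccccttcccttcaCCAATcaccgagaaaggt

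Tau RNA read lowest on the Reln KO array at all 4 Mapt probe sets. At the brightest, 1455028_at, signals were 2346.5 (WT), 1925.8 (Vldlr KO), 2209.1 (Apoer2 KO), 2286.9 (Dab1 KO), 1799.3 (Reln KO) and 2177.8 (double KO). The widest gap was at 1424719_a_at, with 674.8 on the Reln KO array, 1.56-fold below WT, against 901.9 to 1064.9 on the other 5. The probe set 1424718_at is annotated to the same source sequence, and its classes did not overlap, with 1377.4 (Reln KO), 1706.5 (double KO) and 1710.7 (Dab1 KO) below 1745.2 (Apoer2 KO), 1827.2 (WT) and 1870.8 (Vldlr KO). The difference of -0.19 (SE 0.10, adjusted p = 0.522) did not pass and came to -0.09 without the Reln KO array. The last probe set, 1417885_at, spanned only 772.1 to 881.1. Over the members, the Reln KO array was the lowest of the 6 at 9 of 27 probe sets (33.3%), from Cdk5, Cdk5r1, Cdk5r2, Gsk3b and Mapt, against 23% of all probe sets. The WT array was the lowest at 4 of 27 (14.8%), the brightest probe sets of Pafah1b1, Ndel1, Cdk5 and Gsk3b, against 18% of all.

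**Figure D4:**
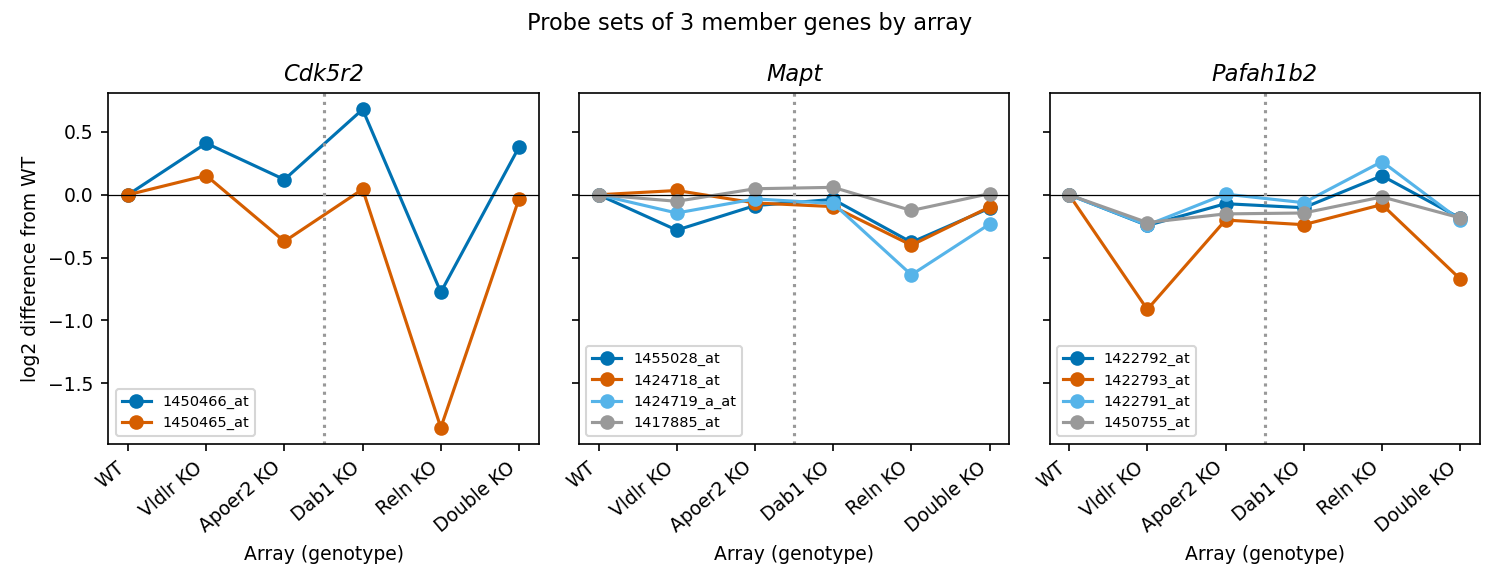
Log2 difference from the WT array on the y axis for every probe set of Cdk5r2, Mapt and Pafah1b2, by array; lines only join the values of 1 probe set. The Reln KO array is lowest at both Cdk5r2 and all 4 Mapt probe sets, and the Vldlr KO and double KO arrays are lowest at the Pafah1b2 probe sets.

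Each mutant was also set against the WT array, with no test, by a fold of 1.5. On the Reln KO array 4 of 27 member probe sets were lower by that much (14.8%, against 6.26% of all probe sets), both of Cdk5r2 and 1 each of Gsk3b and Mapt, and 0 were higher (against 4.62%), which makes 4 of 27 in either direction against 10.9%. At 2-fold, Cdk5r2 1450465_at passed on the Reln KO array (1 of 27, against 2.58% of all). No member passed 2-fold on the Vldlr KO (against 1.05%), Apoer2 KO (0.582%), Dab1 KO (1.39%) or double KO array (1.23%). The double KO array had Gsk3b 1454958_at higher (1 of 27, against 2.34% of all) and Gsk3b 1451020_at and Pafah1b2 1422793_at lower (2 of 27, against 4.37%), or 3 of 27 in either direction against 6.71%. The Dab1 KO array had Cdk5r2 1450466_at higher (1 of 27, against 2.47%) and 0 lower (against 4.84%, and 7.3% in either direction), and the Vldlr KO array had Pafah1b2 1422793_at lower (1 of 27, against 3.45%) and 0 higher (against 2.08%, and 5.53% in either direction). The Apoer2 KO array had 0 (against 2.97% of all in either direction, 1.29% higher and 1.68% lower). All 5 comparisons share the WT array. Against the mean of the 3 comparison arrays, the Reln KO array kept 2 probe sets past this fold and the Dab1 KO and double KO arrays 0.

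The wider pathway was read from 10 lists of partners, each gene at its brightest probe set. Of 110 genes past the filter none passed an adjusted p of 0.05 in limma, the lowest being 0.213 for Dctn5, and 9 (8.18%) passed an unadjusted p of 0.05, against 10.8% of all genes. Their median difference was 0.04, against 0.01 over all genes. Over all genes 51.9% lay above 0. Dynein motor subunits lay close to 0 (10 genes, 9 above 0, median 0.04), from Dync1i1 (-0.07) and Dynll1 (0.02) to Dync1li2 (0.11) and Dync1li1 (0.14). Among 12 dynactin subunits and dynein adaptors 7 lay above 0, with Dctn5, a dynactin subunit, at 0.54 and Actr1a at 0.19, and Capza1 (-0.23) and Bicd2 (-0.18) lowest. Dctn5 read 1217.3 to 1361.8 in reeler models and 745.2 to 980.6 in comparison arrays, without overlap. Other Lis1 partners and migration genes (10 genes, median 0.04) ran from Tubg1 (-0.18) and Tuba1a (-0.08) to Dclk1 (0.17) and Katna1 (0.19).

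Regulators of Cdk5 and of p35 cleavage (7 genes, median -0.01) ran from the calpain Capn1 (-0.23) and Cables1 (-0.08) to Capn2 (0.10) and Cdk5rap3 (0.14). Substrates of Cdk5 had 8 of 10 genes above 0, a median of 0.17, and 5 genes past an unadjusted p of 0.05 in limma. Over all genes 51.9% lay above 0 and 10.8% passed that p. Both the median and the count past that p were the highest of the 10 lists. The lists were chosen with earlier results of these arrays known, so these shares are a description only, and none of the 10 genes passed an adjusted p of 0.05. The highest were Ppp1r1b (0.46, adjusted p = 0.249), the striatal phosphoprotein DARPP-32 and also a striatal marker, and Mef2d (0.26, adjusted p = 0.329), a neuronal transcription factor, with Nes (-0.28) and Stx1a (-0.17) lowest. Ppp1r1b read 1703.1 (Dab1 KO), 2217.6 (Reln KO) and 1970.7 (double KO), above 1333.6 to 1550.7 in comparison arrays. The other 4 striatal genes summed to 3552 to 5226 in reeler models and 3497 to 3730 in comparison arrays, which overlap. Penk read 3041 on the Reln KO array and 1694 to 1848 elsewhere, and the class differences of Drd1 and Drd2 were -0.13 and -0.10. Rgs9 was higher in reeler models without overlap, as Ppp1r1b was, at 1102.2 to 1402.5 against 1040.3 to 1050.1 (difference 0.19). The part of striatal RNA in the Ppp1r1b value was not tested.

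Other tau kinases had 16 of 23 genes above 0 (median 0.06), with Mark4, a microtubule affinity regulating kinase, at 0.34 (adjusted p = 0.338) and Camk2a at 0.28, and Ttbk2 (-0.25) and Ttbk1 (-0.18) lowest. Upstream regulators of Gsk3b (9 genes, median -0.08) held Akt2, a kinase that phosphorylates and inhibits Gsk3b, at -0.55 (adjusted p = 0.326) and Frat2 at -0.32, with Pik3r1 (0.22) and Axin1 (0.15) highest. Akt2 read 596.6 (Dab1 KO), 398.0 (Reln KO) and 573.8 (double KO), below 659.4 to 833.6 in comparison arrays. Tau phosphatases and their regulators (15 genes, median 0.03) ran from Ptpa (-0.26) and Ppp5c (-0.15) to Ppp2r1a (0.18) and Set (0.21). Other microtubule-associated proteins had 6 genes above and 6 below 0, from Mapre2 (-0.17) and Map1a (-0.11) to Map1b (0.17) and Map6 (0.32). The remaining platelet-activating factor acetylhydrolases were Pafah2 (0.22) and Pla2g7 (-0.25).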

How the data were processed

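Total RNA was amplified and biotinylated for 3' expression arrays, per the labels' protocols. The authors deposited 1 linear signal intensity per probe set and array. The submitters' processing notes name MAS5 and Affymetrix Expression Console, with no version, and a genome build is not given in the sources used here. MAS5 scales each array as a whole, so values are relative within an array.

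A pseudocount of 28.1, the lower quartile of the whole table, was added before log2, so differences of dim probe sets are understated. Without 64 control probe sets, the 22519 probe sets with a mean signal of at least 89.0 were fitted with limma 3.58.1 in R 4.3.3 (3 reeler models against 3 comparison arrays, trended prior) and p-values were Benjamini-Hochberg adjusted over all of them. The fit was tested on simulated data. The brightest probe set of a gene has the highest mean signal, those ending in _x_at last. Mutants against WT have 1 array each and no test.

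Members, lists and tests were chosen with earlier results of these data known. The rule for named genes took every member, the targeted genes, the 2 highest and 2 lowest genes of each partner list, and the 3 nearest genes of the 3 most variable members. Patterns across the arrays that lack Vldlr, the Gsk3b pairs and the genes between Cdk5 and Reln were looked at after the values were seen. Promoter windows come from RefSeq's table for GRCm38.p6. Alternatives were a pseudocount of 1 or 89.4, no filter or one at 297.4, quantile normalization, no trend, 1 probe set a gene, a cross covariate, WT as the only comparison array, a 2-fold limit and leaving out each array.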

Additional observations from a re-analysis of the deposited data

How the results depend on the processing

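No member probe set passed an adjusted p of 0.05 under any alternative run, the lowest being 0.210, and 12 of the 27 kept their direction under all of them, among them all of Pafah1b1, Ndel1, Gsk3b except 1439931_at, and Cdk5 1450674_at. None of the 38 named partner genes passed either, and 28 kept their direction. Over the whole array 15 probe sets were called with 1 probe set a gene, 14 with the cross covariate, 0 with WT as the only comparison array (1735 at an unadjusted p of 0.05 in limma), and 2 to 32 without single arrays. Members without overlap numbered 1 with 1 probe set a gene, 15 against WT alone and 4 to 8 without single arrays. The share over all probe sets was not taken under these settings. Fewer arrays overlap less easily, so the counts against WT alone and without single arrays say nothing particular about the members. Past 1.5-fold from WT, the Vldlr KO array had 2 members with a pseudocount of 1 or quantile normalization, and the Apoer2 KO array 1 with a pseudocount of 1 or no filter. The Reln KO array had 2 with the stricter filter or against the mean of comparison arrays and 1 at 2-fold. At 2-fold the Vldlr KO, Dab1 KO and double KO arrays had 0, as had the Dab1 KO and double KO arrays against that mean.

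Small differences changed sign, and so did some larger ones, Cdk5r2 1450465_at (-0.540, the largest of any member) and Frat2 (-0.316). With the cross covariate, which rests on the double KO array against the 3 comparison arrays, Pafah1b2 became -0.081, -0.299, -0.124 and -0.060, Pafah1b3 -0.161, Cdk5 1422590_at 0.145, Cdk5r2 0.203 and 0.041, Mapt 0.016 (1455028_at) and 0.010 (1417885_at), Dync1li1 -0.163, Tuba1a 0.015 and Axin1 -0.095. Against WT alone, Pafah1b2 became -0.046, -0.329, -0.001 and -0.115, Pafah1b3 -0.011, Cdk5r1 1421123_at -0.040, Cdk5r2 1450466_at 0.095, Gsk3b 1439931_at 0.135, Dync1i1 0.071, Katna1 -0.078 and Frat2 0.169. Quantile normalization gave -0.002 for Pafah1b2 1450755_at and -0.083 for Dynll1. Without single arrays the ranges that crossed 0 were -0.039 to 0.129 for Pafah1b2 1422792_at, -0.228 to 0.228 for Pafah1b2 1422793_at, -0.054 to 0.179 for Pafah1b2 1422791_at, -0.040 to 0.071 for Pafah1b2 1450755_at, -0.065 to 0.148 for Pafah1b3 1416410_at, -0.117 to 0.003 for Nde1 1435737_a_at, -0.198 to 0.095 for Cdk5 1422590_at, -0.115 to 0.052 for Cdk5r1 1433451_at, -0.018 to 0.148 for Cdk5r1 1421124_at, -0.010 to 0.076 for Cdk5r1 1421123_at, -0.374 to 0.353 for Cdk5r2 1450466_at, -0.869 to 0.079 for Cdk5r2 1450465_at, -0.229 to 0.060 for Gsk3b 1439931_at, -0.131 to 0.051 for Mapt 1455028_at, -0.057 to 0.035 for Mapt 1417885_at, -0.018 to 0.043 for Dynll1, -0.036 to 0.270 for Dync1li2, -0.068 to 0.371 for Dync1li1, -0.221 to 0.076 for Cables1, -0.314 to 0.028 for Stx1a and -0.619 to 0.111 for Frat2. The cause of these changes was not tested. No paired analysis was possible because each genotype has 1 array. Signals near the bacterial controls, such as Cdk5r2 1450465_at on the Reln KO array, limit what dim probe sets can show, and 1 array per genotype limits the rest.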

Other observations

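The 3 members whose brightest probe set varied most were compared with all 11498 other genes by the root mean square difference of centred log2 signals over the 6 arrays. Nearest to Cdk5r2 were Gnb4 (0.137), Prr36 (0.138) and Kcnt2 (0.138). Each had its lowest signal on the Reln KO array (340.5, 220.9 and 91.5) as Cdk5r2 has, which follows largely from choosing genes by likeness to it. Nearest to Gsk3b at 1454958_at were Zbtb11os1 (0.039), the synaptic scaffold gene Dlg2 (0.041) and Adcyap1r1 (0.048), the receptor of the neuropeptide PACAP. Nearest to Cdk5 at 1450674_at were Nudcd2 (0.026), Slc36a4 (0.028) and Birc6 (0.035). The likeness is a description over 6 arrays that share their scaling, with no test.

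Cdk5 is the only member on the same chromosome as a targeted gene, with 52 genes between it and Reln in RefSeq's annotation, 16 of them protein coding. Of 25 probe sets past the filter for the genes in between, 4 (16%) differed from WT by 1.5-fold or more on the Reln KO array, against 10.9% of all probe sets, and 3 (12%) did on the double KO array, against 6.71%. The Apoer2 KO array had 1 (4%, against 2.97%), and the Vldlr KO and Dab1 KO arrays had 0 (against 5.53% and 7.3%).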
